A study of Sus scrofa with 95 samples.

Results

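The kidney cortex of young pigs that underwent cardiopulmonary bypass with circulatory arrest and received linrodostat was compared with that of pigs that were only anesthetised. Members were chosen by their labels alone: 4 kidneys of the linrodostat arm and 8 control kidneys, 12 of the 95 RNA samples of the study, which took 5 organs from each of 19 animals. The animals were infant swine of 5 to 10 kg. Controls had anesthesia, no bypass and no drug. The linrodostat animals (numbers 12, 18, 20 and 24) had cardiopulmonary bypass (CPB) with deep hypothermic circulatory arrest (DHCA) of 75 min and 75 mg of the drug. A further 7 animals had the same bypass and arrest without drug, and their kidneys are given beside the others as the CPB arm. No group had the drug without bypass, so the comparison with controls takes bypass, arrest and drug together. Kidneys were removed just before euthanasia, drained and frozen, and poly(A) RNA of the cortex was sequenced.

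During bypass a pump and an oxygenator take over from heart and lungs, and during arrest the cooled body has no blood flow, after which the kidney is reperfused. Tubule cells that survive a loss of flow switch on oxidative stress, immediate early and repair genes and lower part of their transport machinery. Linrodostat inhibits indoleamine 2,3-dioxygenase 1 (IDO1), an enzyme that opens the kynurenine pathway of tryptophan breakdown. In whole tissue, fewer cells of a type and less RNA per cell cannot be told apart.

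Total counts per kidney sample, in units of 1e6, were 25.7 to 42.7, of which the 10 most abundant genes took 11.0 to 22.1%. All bore batch label 1, and males and females were 4 and 4 among controls and 2 and 2 in the linrodostat arm. Markers of cortex were present in each of the 12 kidneys, as for the proximal tubule receptor LRP2, at 376 to 1371 CPM in controls and 416 to 873 in the linrodostat arm (CPM, counts per 1e6 counts after TMM scaling). Some samples stood apart. Linrodostat kidney 12 held hepatocyte transcripts, with albumin (ALB) at 333 CPM, while the other 3 of its arm held at most 0.382. CPB kidneys reached 33.9 CPM of ALB. Control kidney 15 was high in interferon-induced and macrophage genes. Control kidneys 14 and 15 had the lowest levels among controls of the podocyte gene NPHS1, 4.18 and 5.94 CPM against a control median of 19.0, and the highest of the loop of Henle transporter SLC12A1. Values without these or other kidneys are given beside many of the results they moved.

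Of 17653 genes tested, 2067 were higher (11.7%) and 1460 lower (8.27%) in linrodostat than in control kidneys at an adjusted p under 0.05. The changes of 1118 of them were at least 2-fold, 523 higher and 595 lower. Without linrodostat kidney 12, 1448 genes were higher (8.07%) and 839 lower (4.68%). In that comparison 2227 of the 3527 genes passed again, and 3511 kept their sign. The counts moved further without kidney 18, when 1168 were higher and 733 lower. Without kidney 20, 954 were lower. The call of 1510 genes held when each of the 4 linrodostat kidneys was left out in turn, 956 higher and 554 lower. All 4 linrodostat kidneys lay above all 8 controls for 1071 genes (6.07%) and below them for 668 (3.78%). The median log2 fold change of all genes was -0.04.

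Genes with the largest increases that held without each linrodostat kidney included those of a chemokine, receptors, proteases, a stress enzyme and a transcription factor. Their levels below are in the order of animals 12, 18, 20 and 24, controls are given as lowest, median and highest, and a value after ± is the standard error of a log2 fold change.

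HMOX1, heme oxygenase 1, which breaks heme down to biliverdin, iron and carbon monoxide, stood at 5575, 3505, 4806 and 628 CPM. In controls it lay at 42.2, 81.2 and 333 CPM. Kidney 24 held the lowest of the 4 values, and even that lay above every control. The log2 fold change was 5.09 ± 0.65 (adjusted p = 5.07e-05). TNFRSF12A, the receptor of the cytokine TWEAK, stood at 286, 360, 148 and 119 CPM against 6.47, 12.5 and 17.9 in controls. The arms did not overlap, and the log2 fold change of 4.17 ± 0.30 had the smallest adjusted p of these genes (1.8e-07). FOSL1, a subunit of the transcription factor AP-1, stood at 25.9, 43.2, 18.2 and 4.3 CPM against 0.051, 0.185 and 0.957. It too separated the arms fully, at 6.20 ± 0.78 on the log2 scale (adjusted p = 4.4e-05).

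CCL27, a chemokine known from skin epithelium, was nearly silent in controls, at 0, 0.0264 and 0.238 CPM. It stood at 3.69, 13.5, 1.35 and 1.24 CPM in the linrodostat arm, highest in kidney 18. The log2 fold change was 6.48 ± 0.78 (adjusted p = 2.6e-05). IL1RL1, the receptor of interleukin 33, stood at 12.1, 63.5, 22.4 and 3.12 CPM against 0.127, 0.709 and 1.7 in controls. No linrodostat kidney overlapped the controls in either gene.

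The orphan receptor GPRC5A stood at 71.9, 93.8, 89.9 and 44 CPM against 2.5, 4.15 and 8.83 in controls. The matrix metalloproteases MMP7 and MMP1 differed by 3.59 ± 0.58 and 4.16 ± 0.96 on the log2 scale. MMP7 was abundant in kidneys 12 and 18 (288 and 490 CPM), whereas MMP1 did not exceed 4.83 CPM in any of the 12 kidneys. RefSeq (Sscrofa11.1, matched by symbol) places TNFRSF12A on chromosome 3 at 39166288 to 39168294 and FOSL1 on chromosome 2 at 6430158 to 6436173. MMP1 and MMP7 lie on chromosome 9, at 33411738 to 33420205 and 33214590 to 33225080.

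**Figure D1:**
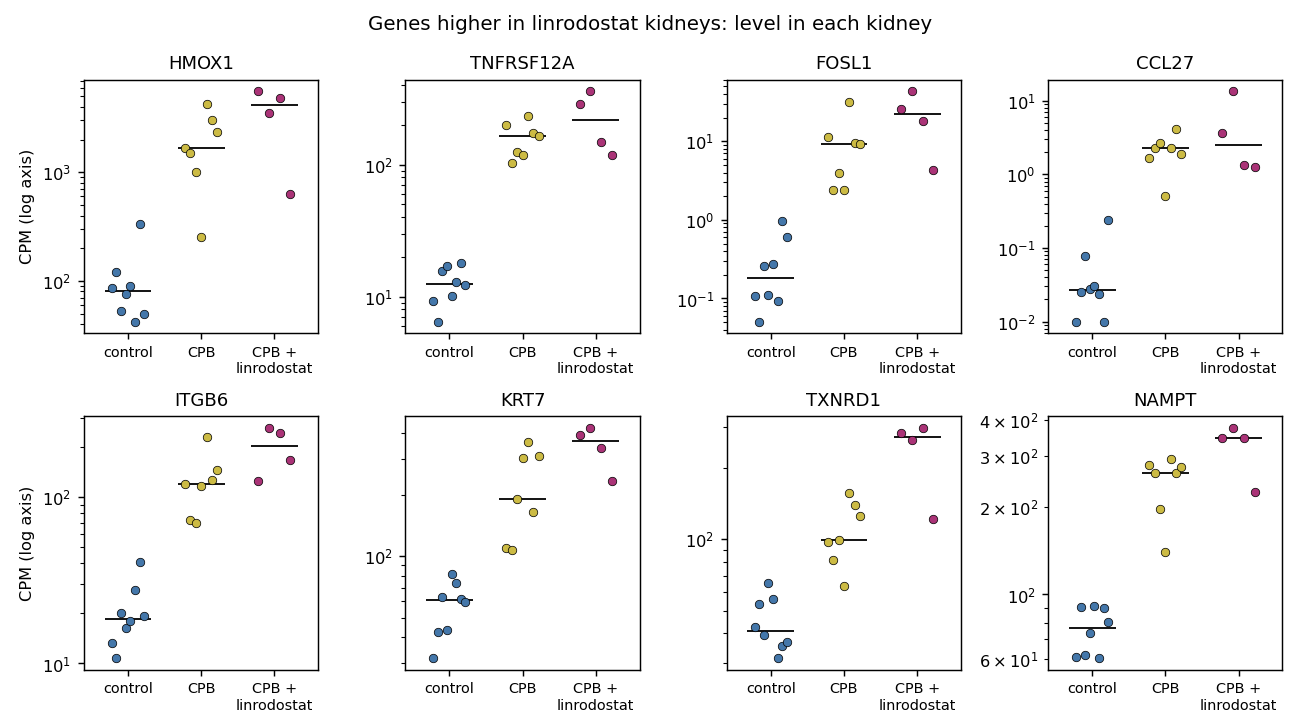
CPM on a log axis in each of 8 control, 7 CPB and 4 linrodostat kidneys for 8 genes, with a line at each arm's median and values of 0 drawn at the bottom of the CCL27 panel. All 4 linrodostat kidneys lie above all 8 controls in each panel, and the CPB kidneys overlap the linrodostat kidneys.

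The counts of list members given from here on stand beside 11.7% higher and 8.27% lower among all genes tested. Without kidney 18, calls over all genes fell from 2067 to 1168 higher and from 1460 to 733 lower. Most genes listed for the response to oxidants were higher. Of 17 tested targets of NRF2, the transcription factor that answers electrophiles and oxidants, 13 were higher, 0 were lower and 4 did not pass, with a median log2 fold change of 1.47. Without kidney 12, 11 were higher. SRXN1, sulfiredoxin, which restores oxidised peroxiredoxins, stood at 417, 496, 381 and 335 CPM against 21.7, 55.5 and 106 in controls. TXNRD1, thioredoxin reductase, stood at 281, 263, 296 and 122 CPM against 31.4, 41.1 and 65.2. Both genes separated the arms, at 2.82 ± 0.33 and 2.42 ± 0.24 on the log2 scale. NQO1, a quinone reductase, was highest in kidney 12, at 1050 CPM, and its log2 fold change of 2.31 ± 0.43 became 1.73 without that kidney. Both subunits of the enzyme that limits glutathione synthesis passed too, GCLC at 2.11 and GCLM at 1.74, as did the cystine transporter SLC7A11 at 1.83, though not without kidney 18 (adjusted p = 0.0976) or kidney 20 (adjusted p = 0.0598). FTL, PIR, TALDO1 and CBR3 did not pass.

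Many markers of injured tubules were higher in the linrodostat arm. Of 23 tested, 13 were higher, 1 was lower and 9 did not pass, with a median log2 fold change of 1.31, and 12 were higher without kidney 12. ITGB6, the chain of an integrin that activates TGF-beta, stood at 124, 260, 241 and 167 CPM against 10.8, 18.6 and 40.6. KRT7, a keratin of simple epithelia, stood at 393, 424, 336 and 232 CPM against 31.7, 60.9 and 81.8. The arms did not overlap in either. The galectin LGALS3 differed by 2.70 ± 0.31, the keratin KRT18 by 2.53 and osteopontin (SPP1) by 2.31 on the log2 scale. PROM1, prominin 1, was the member that fell, by 1.76 on the log2 scale. LCN2, the urinary injury marker NGAL, stood at 16.9, 44.7, 25.3 and 12.3 CPM against 9.43, 16.6 and 28.5, overlapped the controls and did not pass (adjusted p = 0.315).

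Of 17 genes of the calcium-binding S100 and annexin families, 9 were higher and 1 was lower (5 and 1 without kidney 18), with S100A2 at 3.05 ± 0.59, ANXA2 at 1.93 ± 0.31 and S100A6 at 1.93 ± 0.25 on the log2 scale. The median log2 fold change of the 17 was 0.56, and 0.43 without kidney 18. Of 20 genes of epithelial junctions, 8 were higher, 0 were lower and 12 did not pass, and 5 were higher without kidney 18. The median log2 fold change of the 20 was 0.30, and 0.35 without kidney 18. Over all genes, 2067 were higher, and 1168 without that kidney. The adhesion molecule EPCAM stood at 652, 774, 594 and 532 CPM against 163, 237 and 264 in controls. Its spread within each arm was small beside the gap between them, and the log2 fold change was 1.49 ± 0.14 (adjusted p = 2.33e-06). The junction protein F11R differed by 1.06 ± 0.16. CLDN4, a claudin, differed by 1.09 ± 0.29 and did not pass without kidney 18 (adjusted p = 0.109).

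Immediate early genes, which cells switch on within minutes of a stimulus, were higher in 16 of 27 tested, lower in 0, with a median log2 fold change of 1.09. Without kidney 12, 14 passed. The phosphatase DUSP5, which turns off ERK, stood at 49.4, 66.4, 34.9 and 29.8 CPM against 4.38, 8.3 and 15.6. FOSB differed by 1.97 ± 0.35, MYC by 1.77, EGR1 by 1.33 and JUN by 1.31 on the log2 scale. EGR1 did not pass without kidney 12 (adjusted p = 0.0743) or kidney 18 (adjusted p = 0.0611). The NR4A nuclear receptors did not pass: NR4A1 was at 0.19, NR4A2 at -0.30 and NR4A3 at 0.25.

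Of 28 genes of the unfolded protein and integrated stress responses, 8 were higher and 2 lower. TRIB3, a pseudokinase induced by ATF4, stood at 9.57, 11, 7.47 and 3.38 CPM against 0.408, 1.3 and 2.31. CHAC1, which degrades glutathione, differed by 1.95 ± 0.35 and the transcription factor ATF3 by 1.52 ± 0.36. Of 24 heat shock genes 6 were higher, 3 without kidney 12, 2 without kidney 18 and 10 without kidney 24. HSPH1, at 1.05 ± 0.29, did not pass without kidney 12 (adjusted p = 0.085) or without kidney 18 (adjusted p = 0.0872). The co-chaperone BAG3 passed in both, at 0.86 ± 0.20 with all kidneys.

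Of 20 tested p53 targets, 7 were higher, 0 were lower and 13 did not pass, and 4 were higher without kidney 18. Their median log2 fold change was 0.30, and 0.14 without kidney 18. Over all genes, 2067 were higher, and 1168 without kidney 18. The cell cycle inhibitor CDKN1A stood at 31, 43.1, 20.4 and 11.8 CPM against 3.5, 5.88 and 12.6, with kidney 24 inside the control range. The kinases PLK2 and PLK3 differed by 1.54 ± 0.20 and 1.38 ± 0.21. In the BCL2 family the survival factor MCL1 stood at 847, 831, 489 and 404 CPM against 142, 201 and 274. The death-promoting member BMF was lower, at -0.76 ± 0.16 on the log2 scale. Of 24 cell cycle genes 1 was higher and 1 lower, and 3 were higher without control kidney 15.

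Genes of the response to interleukin 6 and STAT3 were higher in 15 of 20 tested and lower in 0, with a median log2 fold change of 1.12, and in 11 without kidney 12. LIF, a cytokine of that family, stood at 15, 42, 13.3 and 4.53 CPM against 0.703, 1.89 and 4.41 in controls. Kidney 24 lay just above the highest control. The transcription factors CEBPD and CEBPB differed by 1.86 and 1.31, and the feedback inhibitor SOCS3 by 1.12. SOCS3 was at 0.77 without kidney 18 and did not pass (adjusted p = 0.122). HAMP, which codes for the iron hormone hepcidin, passed only with kidney 12, which held 9.5 CPM while the other 3 held at most 0.0319. Of 21 NF-kB cytokines and feedback genes 3 were higher (CCL27, IER3 and NFKBIZ) and 1, TNF, was lower. These are 14.3% and 4.76% of the list, near the 11.7% and 8.27% of all genes. Without control kidney 15, 5 of the 21 were higher and 0 lower. TNF went from -1.59 to -0.996 (adjusted p = 0.0842), and it missed the threshold without each linrodostat kidney too (adjusted p = 0.0745 to 0.127). NFKBIZ did not pass without kidney 12 (adjusted p = 0.0807) or kidney 18 (adjusted p = 0.127).

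Genes for clotting and repair were among those that passed. Tissue factor (F3), which starts clotting, stood at 50, 56.9, 26 and 21.3 CPM against 5.18, 12.7 and 18.4. The protein C receptor PROCR differed by 1.59 ± 0.25. Of 21 growth factors of repair 7 were higher and 1 lower, 4 and 1 without kidney 12. GDF15 differed by 2.08 ± 0.52 and missed the threshold without kidney 18 (adjusted p = 0.0503). The heparin-binding growth factor HBEGF was at 1.73 and the hepatocyte growth factor receptor MET at 1.27. Of 29 genes of hypoxia and glycolysis 5 were higher and 1 lower, 3 and 1 without kidney 18 or 20, and 8 and 1 without control kidney 15. PFKFB3, which drives glycolysis, stood at 182, 259, 207 and 152 CPM against 25.2, 35.3 and 106.

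**Figure D2:**
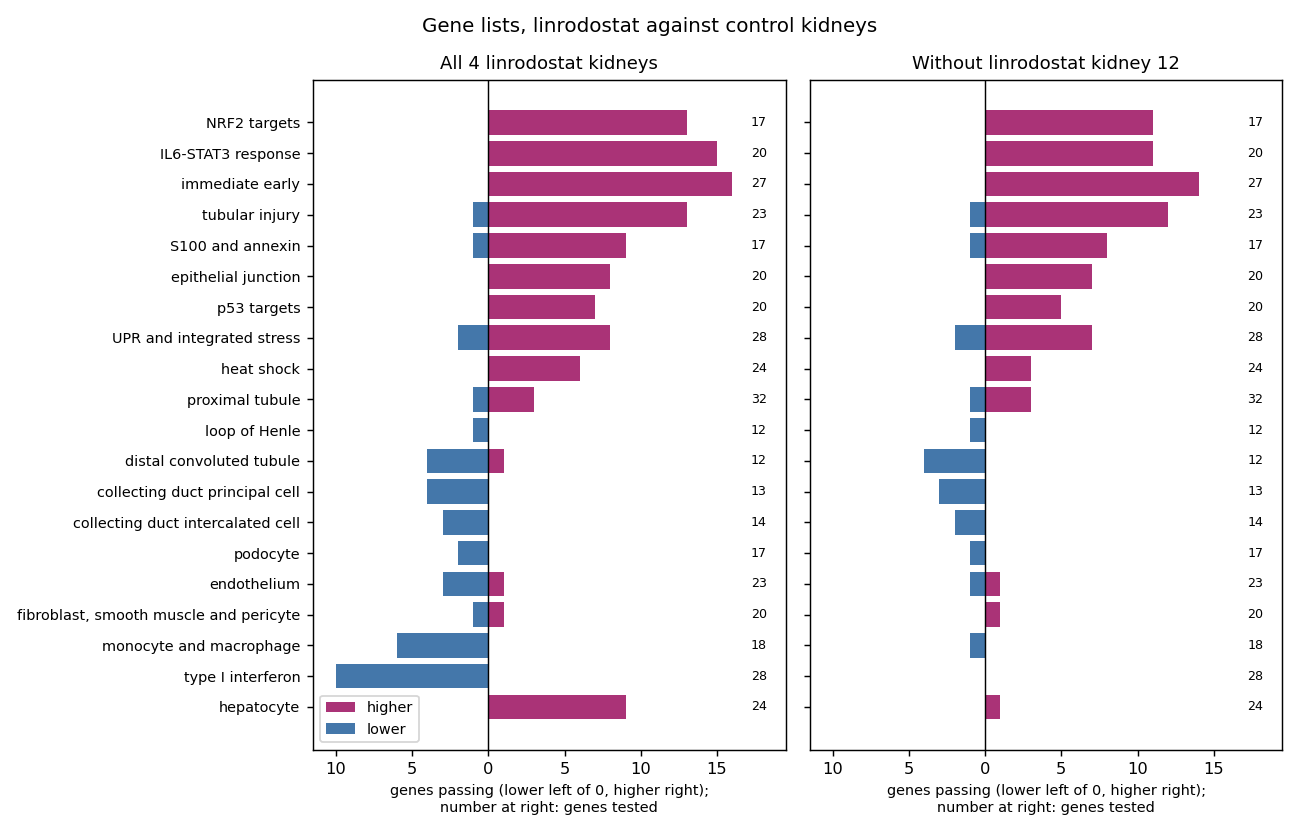
Number of genes passing at an adjusted p under 0.05, higher to the right and lower to the left, in 20 gene lists with all 4 linrodostat kidneys (left) and without kidney 12 (right). NRF2 targets go from 13 to 11 higher and tubular injury genes from 13 to 12, while hepatocyte genes go from 9 to 1 and type I interferon genes from 10 lower to 0. Over all genes tested, 11.7% were higher and 8.27% lower with kidney 12, and 8.07% and 4.68% without it.

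The genes with the largest decreases that held without each linrodostat kidney were mostly of low abundance. ATP12A, a proton and potassium pump, stood at 5.45, 5.2, 8.06 and 9.21 CPM against 11.9, 47.9 and 64.2. PRR35 stood at 1.4, 1.6, 1.2 and 2.52 CPM against 6.05, 11.9 and 20.1, and the protease TMPRSS3 at 0.784, 0.532, 0.468 and 0.733 against 1.96, 3.61 and 7.91. All 4 linrodostat kidneys lay below all controls in these 3 genes. SFRP2, a secreted Wnt modulator, had the lowest log2 fold change, -4.66 ± 1.13, but its controls ran from 0.255 to 56.7 CPM and overlapped the linrodostat arm, and limma-voom did not call it (adjusted p = 0.255). DNTT was at -3.53 ± 0.72, CDHR4 at -2.65 ± 0.63, EDAR at -2.41 ± 0.56, the B cell and macrophage receptor CD180 at -2.33 ± 0.59 and the amino acid transporter SLC7A10 at -3.15 ± 0.74. LGALS3BP, a secreted glycoprotein, was at -2.63 ± 0.66, or -2.04 without control kidney 15, whose 1088 CPM was the highest.

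**Figure D3:**
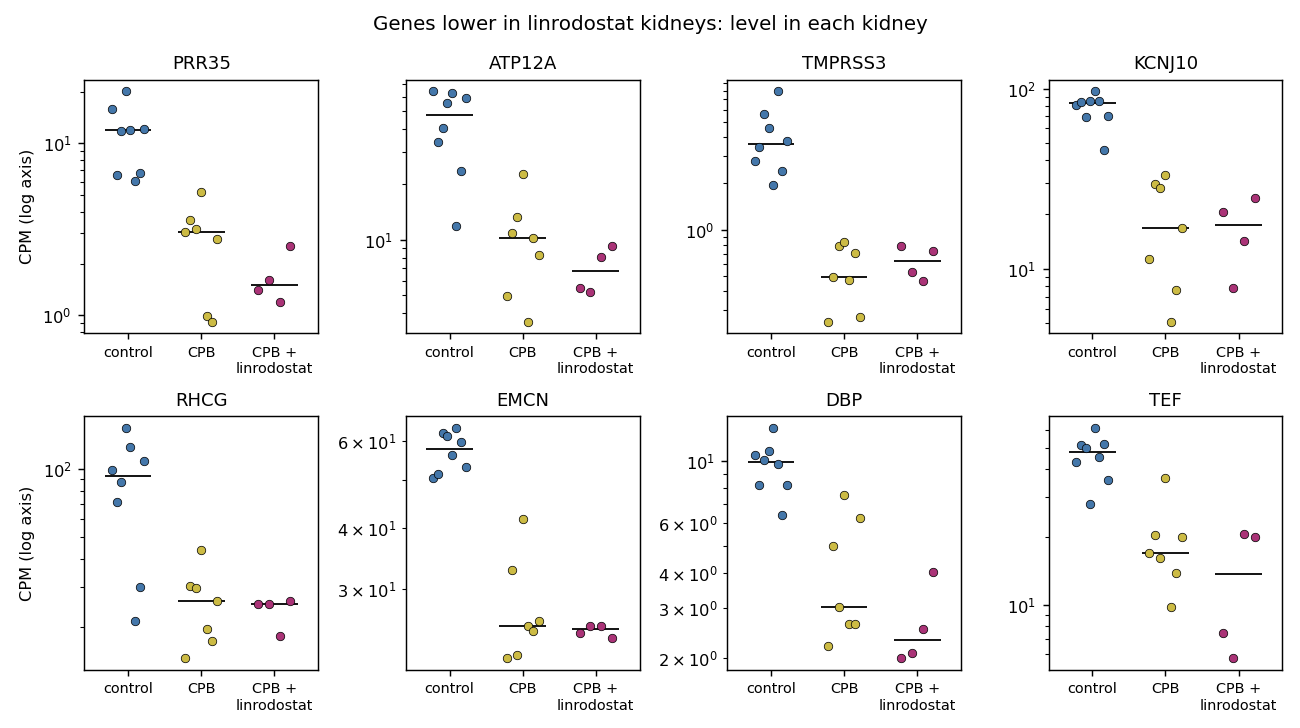
CPM on a log axis in each of 8 control, 7 CPB and 4 linrodostat kidneys for 8 genes, with a line at each arm's median. The linrodostat kidneys lie below all controls for 7 of the genes, and RHCG overlaps its lowest control.

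Along the nephron, most transport genes did not pass. Of 32 proximal tubule genes 3 were higher, 1 was lower and 28 did not pass. The sulfate transporter SLC13A1 stood at 872, 729, 892 and 409 CPM against 54, 182 and 253. The glucose transporter SLC2A2 stood at 166, 47.8, 82.3 and 75.9 CPM against 6.57, 24.7 and 28.8. Both were above every control, as 2 of the few segment genes that were higher. SLC9A3, the sodium and proton exchanger of the brush border, was lower, at 25.3, 19, 42.4 and 43.8 CPM against 53.6, 62.6 and 171. The phosphate transporter SLC34A1 was at -0.50 and the endocytic receptor LRP2 at -0.59, and neither passed. Control kidney 15 had the lowest SLC34A1 and LRP2 of all 12, and without it both were lower, at -0.63 (adjusted p = 0.0345) and -0.71 (adjusted p = 0.0164). Of the 32 genes 5 were then lower, and 6 without control kidneys 14 and 15.

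Further along the nephron, the changes that passed were mostly decreases. Of 12 loop of Henle genes only CLDN14 passed, at -1.42 ± 0.41, and it did not without kidney 24 (adjusted p = 0.0552). That is 8.33% of the list, beside 8.27% lower among all genes. Of 12 distal convoluted tubule genes 4 were lower and 1 higher, and 2 were lower without kidney 18. KLHL3, which marks WNK kinases for degradation, was at -1.66 ± 0.39. The calcium channel TRPV5 was at 1.44 ± 0.48 and did not pass without kidney 12 (adjusted p = 0.213) or kidney 18 (adjusted p = 0.132). It also missed the threshold with limma-voom (adjusted p = 0.0577) and with no low-count filter (adjusted p = 0.0836). The same held on leaving out any 1 of several control or CPB kidneys. Of 13 principal cell genes 4 were lower and 0 higher. The potassium channel KCNJ10 stood at 20.7, 7.77, 14.2 and 24.6 CPM against 45.3, 82.8 and 96.6, below every control. HSD11B2, which protects the mineralocorticoid receptor from cortisol, was at -1.29 ± 0.32. Of 14 intercalated cell genes 3 were lower, and 1 without kidney 18 or 24, led by the ammonia transporter RHCG at 25.1, 25.1, 18.1 and 25.9 CPM against 21.3, 93.2 and 152.

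Of 17 podocyte genes 2 were lower, among them TCF21 at -1.15 ± 0.38, and neither call held without kidney 18. The 2 are 11.8% of the list, beside 8.27% lower among all genes. Among 10 genes of the renin-angiotensin system 0 passed. Of 10 guanylin and natriuretic peptide genes, the peptide GUCA2B stood at 9.93, 15.7, 12.3 and 22.5 CPM against 0.255, 0.405 and 2.89. Its neighbour GUCA2A was higher too, at 2.99 ± 0.61, though under 2 CPM in every kidney. Their receptor GUCY2C was lower, at -0.99 ± 0.23. The peptide pair lies on chromosome 6, GUCA2A at 169146336 to 169148284 and GUCA2B at 169152172 to 169154557.

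Among 23 endothelial genes 1 was higher (4.35%) and 3 were lower (13%), with a median log2 fold change of -0.34. Without control kidneys 14 and 15 this turned, to 5 higher, 1 lower and a median of 0.06, and only 1 was lower without kidney 12 or 18. EMCN, endomucin, stood at 24.5, 25.2, 25.3 and 23.9 CPM against 50.5, 57.8 and 63.8. The 4 values were close to each other and below all controls, and the log2 fold change was -1.21 ± 0.15 (adjusted p = 3.21e-05). KDR, a receptor of VEGF, was at -0.73 ± 0.23 and did not pass without kidney 12 (adjusted p = 0.0989) or kidney 18 (adjusted p = 0.0981). Of 20 fibroblast, smooth muscle and pericyte genes 1 was higher and 1 lower. Of 10 fat cell genes 4 were lower, and 2 without kidney 18. Among the 4 was PLIN1 at -4.52 ± 1.20 (adjusted p = 0.0507 without kidney 18), whose controls ran from 0.49 to 28.8 CPM. ADIPOQ, a defining fat gene, stood at 117, 57.5 and 13 CPM in control kidneys 26, 1 and 10. It reached at most 0.54 CPM in the other controls and 0.0956 in the linrodostat arm. The part of fat tissue in the samples was not tested.

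Some interferon and macrophage genes were lower, and these calls depended on single kidneys. Of 28 type I interferon genes 10 were lower, 0 higher and 18 did not pass, with a median log2 fold change of -2.16. Without kidney 12, 0 passed, although the median was -1.95, and without control kidney 15, 4 were lower with a median of -1.24. Leaving out other kidneys gave 1 (linrodostat kidney 24) to 21 (control kidney 4). The summed level of the list lay between 1055 and 12617 CPM in controls and between 567 and 1328 in the linrodostat arm. IFIT2 stood at 4.28, 11.6, 13.5 and 6.85 CPM against 12.3, 24.8 and 327, the highest being control 15. Of 18 macrophage genes 6 were lower, 1 without kidney 12 and 0 without kidney 24. SIGLEC1, a receptor of resident macrophages, was at -3.22 ± 0.91, or -2.14 without control kidney 15, and CX3CR1 was at -1.55 ± 0.50. Neither passed without kidney 12 (adjusted p = 0.0624 and 0.101) or kidney 24 (adjusted p = 0.0501 and 0.094). CD68 (0.11) and CD163 (0.02) did not pass with all kidneys. Without control kidney 15, CD68 was higher, at 0.88 (adjusted p = 0.00865), and the list held 1 higher and 4 lower genes. Of 10 neutrophil genes 5 were higher and 2 lower, 2 and 1 without kidney 12, 2 and 2 without kidney 18, and 5 and 0 without kidney 20 or 24. S100A8 stood at 3.69, 3.03, 0.078 and 0.255 CPM against 0, 0.163 and 0.581. Among 19 T and NK cell genes 0 passed.

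Hepatocyte genes were higher through 1 kidney. Of 24 tested, 9 were higher, and without kidney 12 only APOB was, at an adjusted p of 0.0496. ALB stood at 333, 0.123, 0.338 and 0.382 CPM against 0.187, 0.542 and 4.94. Its log2 fold change of 6.08 ± 1.71 turned to -2.12 without kidney 12, and those of APOH, NNMT and HAMP turned negative too. Of 295 tested genes at least 10 times higher in control livers than control kidneys, 61 were higher in the linrodostat arm, and 25 of 300 without kidney 12. Among all genes tested, 11.7% were higher with kidney 12 and 8.07% without it. In kidney 12 hemoglobin beta (HBB) was also high, at 509 CPM against at most 112 in controls.

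**Figure D4:**
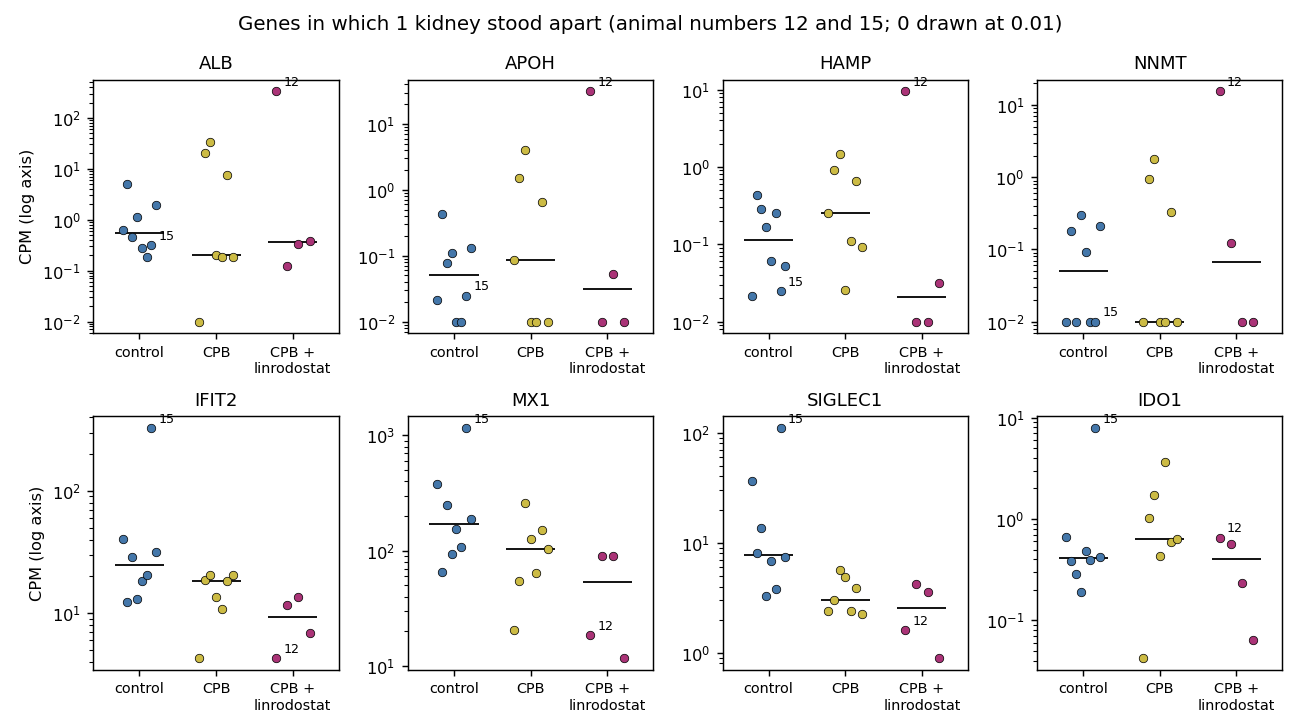
CPM on a log axis, 0 drawn at 0.01, in each of 8 control, 7 CPB and 4 linrodostat kidneys, with linrodostat kidney 12 and control kidney 15 numbered and a line at each arm's median. Kidney 12 stands alone in ALB, APOH, HAMP and NNMT, and control 15 stands highest in IFIT2, MX1, SIGLEC1 and IDO1.

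The transcript of the drug's target was at a low level in this tissue. IDO1 stood at 0.653, 0.573, 0.234 and 0.0637 CPM in the linrodostat arm and at 0.192, 0.41 and 7.9 in controls, the highest being control 15. It did not pass (adjusted p = 0.251), and its log2 fold change of -1.82 ± 1.09 became -0.10 without that control. Its homologue IDO2 was more abundant and higher, at 54.4, 93.4, 67.6 and 48.9 CPM against 10.8, 22.7 and 37.5. TDO2, the liver enzyme of the same step, was under the count filter, with 4.51 CPM in kidney 12 and at most 0.078 in the other 3. Of 15 kynurenine pathway genes 1 was higher and 3 were lower. KMO was at -0.56 ± 0.17, KYNU at -0.74 ± 0.22 and KYAT1 at -0.61 ± 0.20, and none of the 3 calls held without kidney 18. Of 17 genes of NAD synthesis and use 2 were higher and 5 lower, and 2 and 2 without kidney 18. NAMPT, which recycles nicotinamide to NAD, stood at 347, 376, 346 and 226 CPM against 60.3, 76.8 and 91.4, a log2 fold change of 2.09 ± 0.18 (adjusted p = 1.07e-06).

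Other metabolic lists held few changes with all kidneys. Of 28 genes of oxidative phosphorylation 1 was higher and 1 lower, and 0 passed without kidney 12 or 18. Of 28 of fatty acid oxidation 2 were higher and 2 lower, and 4 were lower without control kidney 15. PLIN2, which coats lipid droplets, stood at 171, 204, 199 and 56 CPM against 27.9, 37.4 and 58.1. Kidney 24 lay inside the control range. Of 24 cholesterol synthesis genes 2 were higher and 2 lower, but 7 were higher without control kidney 15, 5 without linrodostat kidney 24 and 0 without kidney 18. The clock held 4 higher and 6 lower genes of 20. Its output factors DBP and TEF stood at 1.99, 2.09, 2.52 and 4.02 CPM and at 7.45, 5.77, 20.6 and 20 CPM, below every control, at -1.85 ± 0.33 and -1.77 ± 0.36. The times of day of sampling were not given in the sources used here. The cold-induced genes RBM3 and CIRBP did not pass, at 0.62 ± 0.35 and -0.17 ± 0.18.

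Set against bypass without drug, no gene passed with edgeR. Against the same 8 controls, the CPB kidneys had 1992 genes higher (11.3%) and 1741 lower (9.86%). For linrodostat against CPB, 0 of 17653 genes passed (0%) with edgeR, where the smallest adjusted p was 0.709. An unadjusted p under 0.05 was found for 822 (4.66%). limma-voom called 0 genes and DESeq2 called 4. These were LMCD1, ALDH1A3, ADIPOQ, which had no counts in any CPB kidney, and ENSSSCG00000035583. Without CPB kidney 19, edgeR called LMCD1. A missed threshold does not show that the arms acted alike, and the intervals say which differences these samples allow.

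For HMOX1 the linrodostat minus CPB difference was 0.86 on the log2 scale, with a 95% interval from -0.47 to 2.19. For TNFRSF12A it was 0.52 (-0.11 to 1.14), and for EPCAM 0.13 (-0.19 to 0.44). LGALS3 differed by -0.02 (-0.70 to 0.66) and EMCN by -0.17 (-0.47 to 0.14). These intervals all hold 0, and that of EPCAM is the narrowest among the higher genes given here. The 5 genes with the smallest unadjusted p were LMCD1, ALDH1A3, TXNRD1, IFFO2 and FGF18. LMCD1, a LIM domain protein, stood at 56, 70.5, 70.7 and 52.7 CPM against 19.4 to 48.6 in the CPB arm and 22.6 to 37.2 in controls. TXNRD1 lay at 63.8 to 157 CPM in the CPB arm, which only kidney 24 of the linrodostat arm overlapped, a difference of 1.14 (0.62 to 1.66). FGF18 was lower in CPB than in control kidneys (-1.71 ± 0.47), and its linrodostat minus CPB difference was 2.38 (1.27 to 3.49). It stood at only 0.127 CPM in linrodostat kidney 24. LMCD1, TXNRD1 and FGF18 were picked for their small p. Unadjusted intervals that leave out 0 follow from that choice, which also favors genes whose arms lie apart. None of these genes passed after adjustment over all genes with edgeR and all kidneys.

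Counts by list stood as follows for the CPB arm against control, in the same order as above. NRF2 targets had 9 higher of 17, tubular injury genes 13 of 23, immediate early genes 9 of 27 and IL6-STAT3 genes 8 of 20. For the linrodostat arm they were 13, 13, 16 and 15. Over all genes tested, 11.3% were higher in the CPB arm and 11.7% in the linrodostat arm. Of the 27 immediate early genes, 25 had a higher fitted level in linrodostat than in CPB kidneys, and 12 had an unadjusted p under 0.05. None of the 27 passed after adjustment over all genes. Among all genes tested, 4.66% had an unadjusted p under 0.05, and the median linrodostat minus CPB difference was -0.002 on the log2 scale. Of the 20 stromal genes, 9 were lower in CPB kidneys against 1 in linrodostat kidneys, a difference not tested as a group.

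**Figure D5:**
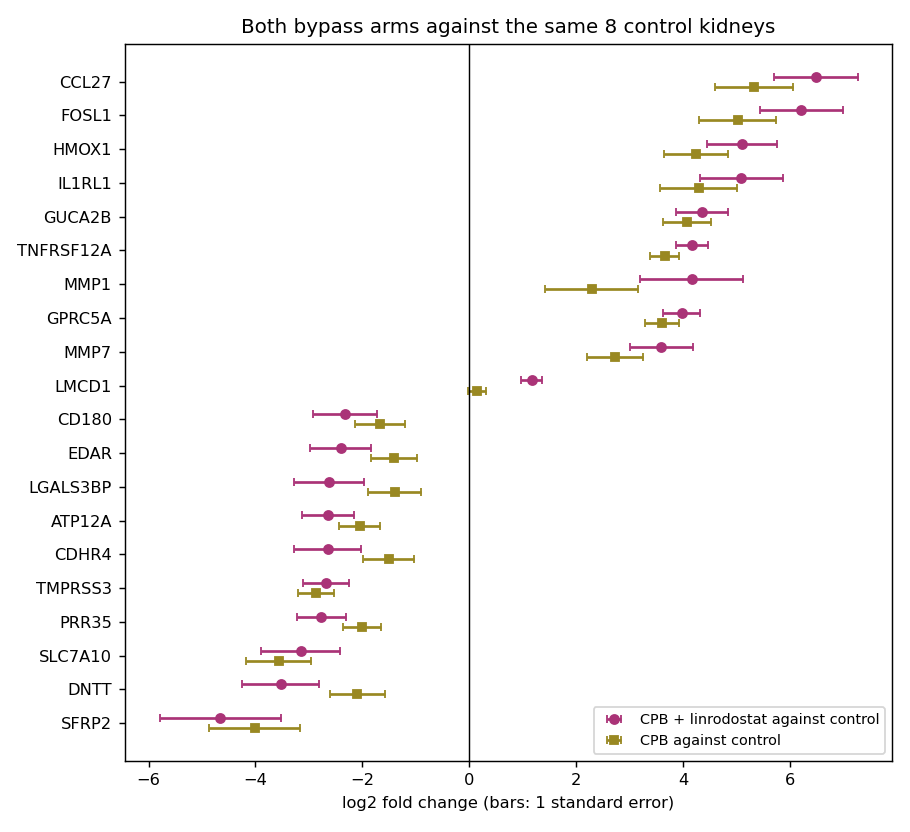
Log2 fold change with 1 standard error for linrodostat against control (circles) and CPB against control (squares), for 9 of the 10 genes with the largest increases, the 10 with the largest decreases and LMCD1. Both comparisons share the 8 controls. The signs are the same for the 19 genes, and LMCD1, picked for its small p against CPB, is at 1.17 and 0.13.

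The change from control to linrodostat was also set against the mean of the same change in heart, ileum, liver and lung. Of 20321 genes, 325 were higher in kidney than in the other organs (1.6%) and 110 lower (0.541%). Without animal 12, 160 and 30 passed, and 184 of the 435 genes passed again. Leaving out animal 18 gave 171 and 19, animal 20 gave 181 and 50, and animal 24 gave 528 and 177. All heart samples bore another batch label, and without heart 423 and 113 passed. Without ileum 382 and 212 passed.

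Several leading genes differed from the other organs with and without animal 12. MCL1 changed by 1.48 ± 0.21 more in kidney on the log2 scale (adjusted p = 1.08e-06). Its changes elsewhere were 0.12 in heart, 0.01 in ileum, 0.23 in liver and 0.11 in lung. NAMPT changed by 1.81 ± 0.25 more, with 1.18 in liver and -0.57 in heart. TNFRSF12A changed by 3.67 ± 0.53 more, and its largest change elsewhere was 1.05 in liver. HMOX1 changed by 3.72 ± 0.60 more, although it was at 2.43 ± 0.53 in heart. DUSP5 and ATF3 had log2 changes below 0 in each of the other organs, and their kidney change was larger by 3.09 ± 0.48 and 2.36 ± 0.50. On the lower side CD209, LPL and RANBP3L changed by -4.90 ± 1.08, -2.83 ± 0.64 and -4.26 ± 0.97 relative to the other organs. RANBP3L did not pass there without animal 18 (adjusted p = 0.0562), and limma-voom called neither it nor CD209. In kidney alone, RANBP3L was at -0.88 (adjusted p = 0.393) without control kidneys 14 and 15, and CD209 did not pass without kidney 12, 18 or 20 (adjusted p = 0.0538 to 0.0637). The organ differences of ALB, APOH, NNMT and HAMP did not pass without animal 12.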

How the data were processed

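Per the labels' protocols, poly(A) RNA was made into Tecan Universal Plus mRNA libraries and read as paired ends on an Illumina sequencer. The authors deposited 1 table of expected counts per Ensembl gene (35670 genes), not scaled for depth. Per the submitters' processing notes, STAR, Salmon and the build Sscrofa11.1 were used, and versions are not given in the sources used here. Values were rounded. Symbols came from the table (17508 genes) or a gene ID table (223), and 110 genes carry different symbols in each.

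All 19 kidney libraries entered 1 fit in R 4.3.3 with edgeR 4.0.16: filterByExpr, TMM and the robust quasi-likelihood F test, 2-sided, with Benjamini-Hochberg adjustment over all genes tested and a threshold of 0.05. CPM is TMM-scaled. The organ contrast used all 95 libraries, with no term for the animal in its main fit. Alternatives included DESeq2 1.42.0 and limma-voom 3.58.1. The procedure was tested on simulated data. No 2 kidney libraries of an arm agreed within sampling noise. Each replicate is another animal, per the labels.

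The members and the 45 gene lists were chosen with earlier results of these data known. Named genes are the 10 highest and 10 lowest passing genes with a symbol, at least 2 CPM in the higher arm and under 10 times higher in control livers, that pass without each linrodostat animal. Added are up to 3 members of each list, the 5 smallest p against CPB, and the 5 highest and 5 lowest in the organ contrast. The rule also named IDO1, TDO2, KMO, KYNU, HMOX1, HAVCR1, LCN2, RBM3 and CIRBP, of which HAVCR1 is given no value here. Not all are printed, some are not reported here, and other list members and markers were chosen after their values were seen.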

Additional observations from a re-analysis of the deposited data

Results flagged for a closer look

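Within an arm, 24 of 232 sets of values of the genes in the text had 1 kidney far from the others on the log2 scale (a gap to the nearest kidney that was large beside the range of the arm, by Dixon's criterion). Chance gives about 1 in 20 for unselected, independent sets. Some of these genes were chosen after their values were seen, and the same kidneys recur among the flags. The count is therefore no measure of an excess over chance. The highest control kidney was number 26 for GUCA2B (2.89 CPM). The lowest linrodostat kidney was number 24 for TXNRD1 (122 CPM), NAMPT (226 CPM), PLIN2 (56 CPM), FGF18 (0.127 CPM) and CEBPB (69.2 CPM). The lowest control kidney was number 4 for TRIB3 (0.408 CPM). The highest linrodostat kidney was number 12 for HAMP (9.5 CPM), PROCR (8.56 CPM), ALB (333 CPM) and APOH (31.4 CPM). The lowest control kidney was number 14 for F3 (5.18 CPM). The highest control kidney was number 14 for PFKFB3 (106 CPM). The lowest control kidney was number 15 for SLC2A2 (6.57 CPM), KCNJ10 (45.3 CPM), SLC34A1 (350 CPM) and LRP2 (376 CPM). The lowest linrodostat kidney was number 20 for RHCG (18.1 CPM). The highest control kidney was number 15 for IFIT2 (327 CPM), IDO1 (7.9 CPM), CD68 (105 CPM), CD163 (133 CPM) and TNF (7.24 CPM). The lowest control kidney was number 13 for NR4A2 (3.3 CPM).

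In 47 of 116 genes of the text the kidney change from control to linrodostat differed from its mean in heart, ileum, liver and lung. The test was an interaction test with edgeR at an adjusted p under 0.05. Over all 20321 genes tested, 1.6% were higher and 0.541% lower. Many genes of the text were chosen for their kidney changes in these same data, and some by this test itself. The 47 are therefore no independent support. The log2 differences that follow are all from the fit with all animals. Larger in kidney, passing with and without animal 12, were CCL27 (7.12), APOB (6.92), FOSL1 (5.55), IL1RL1 (5.02), HMOX1 (3.72), TNFRSF12A (3.67), GPRC5A (3.47), DUSP5 (3.09) and ITGB6 (2.96). Further genes of that kind were LIF (2.92), ATF3 (2.36), HBEGF (2.21), LGALS3 (2.18), GCLC (2.09), EGR1 (2.08), TXNRD1 (1.98), CDKN1A (1.95) and PFKFB3 (1.91). The same held for PLIN2 (1.89), NAMPT (1.81), PLK2 (1.62), JUN (1.57), SOCS3 (1.57), MCL1 (1.48), GCLM (1.40), MYC (1.38) and ANXA2 (1.36). It also held for IFFO2 (1.29). APOB is on the hepatocyte list, of which 9 genes were higher in kidney with kidney 12 and 1 without it. Larger in kidney, but past the threshold only with animal 12, were APOH (9.93), ALB (8.15), NNMT (6.30), HAMP (3.94), SPP1 (2.51), TRIB3 (2.19), EPCAM (2.17), SRXN1 (2.14) and KRT7 (2.06). So were NQO1 (1.71), IER3 (1.55), PLK3 (1.35), LMCD1 (0.98) and F11R (0.94). Below the other organs were HSD11B2 (-2.20), PLIN1 (-3.97), LPL (-2.83), CD209 (-4.90) and RANBP3L (-4.26). Of these, HSD11B2 and PLIN1 did not pass without animal 12. Of the genes that passed without animal 12, ANXA2, PFKFB3, RANBP3L, MYC and SOCS3 did not pass without animal 18, ANXA2 not without animal 20 and APOB not without control animal 7.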

How the results depend on the processing

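No paired analysis was possible between arms, because they share no animal. In the organ contrast the same animals recur across organs, and the animal entered only as a random block in an alternative. Leaving out each animal in turn gave 1168 to 2200 genes higher and 733 to 1687 lower in linrodostat than in control kidneys, 0 to 1 against CPB, and 190 to 705 in the organ contrast. Without a low-count filter 942 genes were lower, and the cause was not tested. DESeq2 called 4 genes against CPB. With limma-voom and the animal as a random block the organ contrast held 677 genes. The share of higher genes among the calls was 58.6%, against 51.4% with DESeq2 and 67.1% with no filter. Every other alternative, including the one without controls 14 and 15, which was chosen after seeing the data, left each of these counts within 1.5 times, the organ contrast taken as a total. Its lower genes alone were 110, but 212 without ileum and 238 with limma-voom. DESeq2 called 2136 genes lower.

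Of 104 genes of the text that passed, 96 were tested under all 27 alternatives run for the comparison with controls, and 71 of these kept direction and call. Of the other 8, absent from at least 1 alternative, 3 kept both wherever tested. Without linrodostat kidney 12, the log2 fold changes of HAMP (-3.56), ALB (-2.12), APOH (-2.14) and NNMT (-1.38) changed sign, and that of HAMP did with limma-voom (-0.19). The highest values on leaving out an animal were 4.26, 6.87, 7.15 and 5.80. CD68 and CD163 did not pass with all kidneys and ran over leave-one-out fits from -0.073 to 0.88 and from -0.70 to 0.66. CD68 passed at 0.88, without control kidney 15, as did SLC34A1 and LRP2. With 4 linrodostat kidneys, spread between animals limits the precision, and the part played by depth was not tested.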
